A study of Homo sapiens with 8 samples.

Results

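Genes whose promoters were recovered with 2 antibodies against the transcription factor Sp1 were compared, gene by gene, in the human osteosarcoma line U-2 OS. A gene was called bound with an antibody when the summit of at least 1 peak, the position of highest signal inside it, lay within 1 kb of any annotated start site of that gene. The comparison covered the 19970 protein-coding genes of chromosomes 1 to 22 and X. Of these, 8073 were bound with at least 1 antibody. They fell into 4233 genes bound with both antibodies (21.2% of all), 3248 bound with antibody 1 only (16.3%) and 592 bound with antibody 2 only (2.96%), which leaves 11897 bound with neither.

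Chromatin was fixed with 1% formaldehyde for 6 min, immunoprecipitated and sequenced (ChIP-seq). Both Sp1 antibodies were used on a knock-in line in which the endogenous SP1 gene carries V5 and Halo tags. MA5-32497 is antibody 1 and PA5-29165 is antibody 2. Each gave 1 library, and normal rabbit IgG gave 1 library from the same line. The 2 CTCF libraries of the series came from a different line, clone C32 with a FLAG and Halo tag at CTCF. All Sp1 material therefore carries the tagged protein, and no untagged U-2 OS library was analysed. Peak lists hold no expression values, so the identity of the cells could not be checked against marker genes. With 1 library per antibody, reagent and library cannot be told apart, no difference has a replicate check, and no p-value is given. The intervals in parentheses are 95% Wilson intervals, which cover counting error only and treat genes as independent, although genes with a common promoter have the same peak.

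Sp1 is a zinc finger protein that recognizes GC-rich elements, the GC boxes, in the promoters of many housekeeping and regulated genes. Outside its zinc fingers it carries long disordered stretches rich in glutamine, serine and threonine, through which it contacts other regulators and the general transcription machinery. Other members of the Sp and KLF family read similar GC-rich DNA. An antibody sees a particular part of its target, so ChIP with different antibodies against the same factor can recover different sets of sites.

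Antibody 1 bound 7481 genes, 37.5% of all protein-coding genes, and antibody 2 bound 4825, or 24.2%. The gene lists are read against the 21.2%, 16.3% and 2.96% of all genes in the 3 classes. Of the antibody 1 genes, 56.6% (55.5 to 57.7%) were also bound with antibody 2. In the other direction, 87.7% (86.8 to 88.6%) of the antibody 2 genes were also bound with antibody 1. The lists differ in length, with 8602 antibody 1 peaks and 5882 antibody 2 peaks on these chromosomes. With 5882 top peaks by p-value taken from each, 3686 genes were bound with both, 2019 with antibody 1 only and 1139 with antibody 2 only, and the shares were 64.6% and 76.4%. Background was low: the IgG list held 90 peaks here and put a summit near only 5 genes. These were AGBL5, PLXDC1 and PPP1R15B, which were bound with both antibodies, PPP1R12C, bound with antibody 2 only, and FKBP1C, bound with neither. PPP1R12C had a higher fold with IgG (15.6) than with antibody 2 (3.44). Genes at the edge of the 1 kb rule were few, with 34 antibody 1 summits in the last 100 bp inside it (median fold 7.76) and 29 in the first 100 bp outside (6.12), and 26 (6.67) and 25 (6.82) for antibody 2.

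A few sequences under strong summits of each class are printed from the hg38 assembly before the values. They are selected examples and do not stand for whole classes, whose word shares are given below. Each is centred on a summit and runs 5′ to 3′ on the strand of the gene. Windows are 81 bases long, or 29 where the longer window would enter an annotated untranslated region. Capitals mark these words on either strand: the GC box GGGCGG, the core CCGGAA read by ETS factors, CGGAAC, TCGCGAGA, and GCGCANGC, part of the element read by NRF1. CGGAAC overlaps the ETS core where CCGGAAC occurs. CGGAAC and GCGCANGC were added after these sequences had been read. A match is a description of the letters and not evidence of which protein was there. The first set comes from genes bound strongly with both antibodies, where a GC box lay close to the summit.
RAD51AP2 (antibody 1 summit, chr2:17518481-17518561, minus strand): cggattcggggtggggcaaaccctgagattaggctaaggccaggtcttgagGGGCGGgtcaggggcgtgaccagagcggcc
GRTP1 (antibody 1 summit, chr13:113364305-113364385, minus strand): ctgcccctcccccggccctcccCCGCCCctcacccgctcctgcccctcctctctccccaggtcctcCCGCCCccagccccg
IQCH (antibody 1 summit, chr15:67254734-67254762, plus strand): aatgaccaggctggcctgaccCCGCCCct

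RAD51AP2 had the highest mean log2 fold over both libraries. Its enrichment was 247-fold with antibody 1 against 157-fold with antibody 2, where fold is the signal at the summit over the control that the peak caller used. At GRTP1, a TBC-domain protein gene, the fold was 167 with antibody 1 and 65.5 with antibody 2, and both summits fell on the same base, at −197 bp from the start site. IQCH had a fold of 157 with antibody 1 and 33.9 with antibody 2, with summits 3 bp apart in the promoter it has in common with AAGAB, a chaperone of clathrin adaptor assembly. STAP2, a signalling adaptor, had 202 and 99.7 at a summit in an intron of its canonical transcript. SPATC1L had 95.7 and 45.1, with no searched word within 50 bp of its summits. At each of these 5 genes antibody 1 had the higher fold. The other 5 of the 10 strongest included genes higher with antibody 1 and genes higher with antibody 2. ERCC6L2, a DNA repair helicase, had 330 with antibody 1 and 18.4 with antibody 2 at summits 397 bp apart, with TCGCGAGA at the antibody 1 summit. MLEC, a lectin of the endoplasmic reticulum, and VPS51, a Golgi tethering subunit, leaned to antibody 2, with 124 against 36.9 and 219 against 20.3. RFX2 and DMAP1 are described with the unequal genes.

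The next set comes from the strongest genes bound with antibody 1 only. It is shown because the words TCGCGAGA and GCGCANGC recur at these summits while the GC box is mostly missing.
PTPN4 (antibody 1 summit, chr2:119759664-119759744, plus strand): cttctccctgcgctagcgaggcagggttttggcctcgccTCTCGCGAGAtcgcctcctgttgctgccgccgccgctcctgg
MAP2K2 (antibody 1 summit, chr19:4124144-4124224, minus strand): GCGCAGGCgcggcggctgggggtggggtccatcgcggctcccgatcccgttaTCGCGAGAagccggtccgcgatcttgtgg
PSMD5 (antibody 1 summit, chr9:120842959-120843039, minus strand): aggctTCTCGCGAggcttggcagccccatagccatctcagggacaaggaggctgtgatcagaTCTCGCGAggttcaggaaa
STXBP4 (antibody 1 summit, chr17:54968704-54968732, plus strand): gcgtgctccgTCTCGCGAGAtctgggttg
ANKRD26 (antibody 1 summit, chr10:27100507-27100587, minus strand): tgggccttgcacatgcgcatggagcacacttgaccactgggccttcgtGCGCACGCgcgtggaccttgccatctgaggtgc
N6AMT1 (antibody 1 summit, chr21:28885365-28885393, minus strand): tGCGCATGCGCACGCcctGCGCACGCgca

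PTPN4, which encodes a tyrosine phosphatase, had a fold of 161 with antibody 1. Genes of 1 antibody were named here only where the other had no peak within 5 kb. MAP2K2, the kinase MEK2 of the ERK cascade, had a fold of 112. PSMD5, an assembly chaperone of the proteasome, had a fold of 115, and STXBP4 had 118 at a promoter it has in common with COX11, an assembly factor of cytochrome c oxidase. ZZZ3, a histone reader of the ATAC complex, reached 127. All 5 had TCGCGAGA within 50 bp of the summit. The other 5 of the 10 strongest had the NRF1-like word GCGCATGC there instead. ADI1, an enzyme of methionine salvage, had the highest fold of any gene in either list, 761, at an intronic summit 515 bp downstream of the start site. ANKRD26 followed with 148, then XRCC5, the Ku80 subunit of DNA end joining, with 109, N6AMT1, a methyltransferase, with 104 and EXOC8, an exocyst subunit, with 102. Of these 10 genes only MAP2K2 had a GC box in the same window.

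The strongest genes bound with antibody 2 only had neither word. CGGAAC or the ETS core CCGGAA occurred in their place at most of these summits.
WDR11 (antibody 2 summit, chr10:120851210-120851290, plus strand): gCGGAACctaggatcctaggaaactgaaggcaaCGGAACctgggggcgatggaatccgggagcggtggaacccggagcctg
SSBP1 (antibody 2 summit, chr7:141738223-141738303, plus strand): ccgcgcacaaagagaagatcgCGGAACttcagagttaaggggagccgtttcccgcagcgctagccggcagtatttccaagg
RAD54L2 (antibody 2 summit, chr3:51538610-51538690, plus strand): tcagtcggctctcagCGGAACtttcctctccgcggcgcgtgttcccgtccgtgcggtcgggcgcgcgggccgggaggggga
MTERF4 (antibody 2 summit, chr2:241102323-241102403, minus strand): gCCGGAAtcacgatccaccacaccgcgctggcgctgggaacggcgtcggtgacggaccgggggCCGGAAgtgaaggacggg

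CDK5RAP1, a modifier of mitochondrial tRNA, had the highest fold of this class, 126, with none of the searched words within 50 bp. WDR11 had a fold of 108 with 2 marked CGGAAC matches. IFTAP, a factor of intraflagellar transport, had 95.4 at a promoter it has in common with RAG2 and held the ZNF143-like word ACTACAATT. VPS25, a subunit of the ESCRT-II complex, had 94.5, and TEFM, the elongation factor of mitochondrial transcription, had 90.7. SSBP1, the single-strand binding protein of mitochondrial DNA, had 85.2, and AQR, a helicase of the spliceosome, had 83.2. MTERF4, a mitochondrial ribosome assembly factor, had 82.9, KRR1, a factor of small ribosomal subunit assembly, had 79.8, and RAD54L2 had 79.5. Of the 10, 7 held CCGGAA or CGGAAC within 50 bp of the summit, and SSBP1 alone held a GC box.

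The last set shows genes bound with both antibodies at very different strength. It is a selection, and DMAP1 is not among the 5 most unequal genes. Of those more unequal with antibody 1, FAM200B and RFX2 had no TCGCGAGA within 50 bp of the antibody 1 summit. Of those more unequal with antibody 2, IGHMBP2 and SUPT7L had neither CCGGAA nor CGGAAC within 50 bp of the antibody 2 summit. VTI1A, AAR2 and TOP3B had at least 1 of these words there.
DENR (antibody 1 summit, chr12:122752788-122752816, plus strand): ccagcggcggCCGGAATCTCGCGAtaaag
CDK12 (antibody 1 summit, chr17:39461331-39461411, plus strand): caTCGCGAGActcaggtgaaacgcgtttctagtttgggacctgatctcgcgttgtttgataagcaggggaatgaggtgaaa
ARF3 (antibody 1 summit, chr12:48957523-48957603, minus strand): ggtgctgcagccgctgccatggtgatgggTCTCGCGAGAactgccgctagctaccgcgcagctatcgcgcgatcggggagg
DMAP1 (antibody 2 summit, chr1:44213410-44213438, plus strand): caacaccgaCCGGAAgtgtttctgtcggc

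DENR, a factor of translation reinitiation, had a fold of 397 with antibody 1 and 6.75 with antibody 2, a log2 ratio of antibody 2 to antibody 1 of −5.88, the lowest of all. CDK12, a kinase of RNA polymerase II, had 392 with antibody 1 against 7.36 with antibody 2. FAM200B had 246 against 5.5, and ARF3, a small GTPase of the Golgi, had 159 against 4.91. RFX2, a factor of ciliary gene expression, had 416 against 13.8, but its strongest summits lay 88140 bp apart at different start sites. In the opposite direction VTI1A, a SNARE protein gene, had 5.49 with antibody 1 and 134 with antibody 2, a log2 ratio of 4.61. IGHMBP2, a helicase whose promoter also serves the mitochondrial ribosomal gene MRPL21, had 7.09 against 170. AAR2, a U5 snRNP assembly factor, had 3.68 against 84.7. TOP3B, a topoisomerase, had 7.89 against 173, and SUPT7L, a subunit of the SAGA coactivator, had 5.23 against 112. DMAP1, a subunit of the TIP60 complex, had 18.1 with antibody 1 and 289 with antibody 2, the highest antibody 2 value of all genes. Its summits lay 1 bp apart, so the difference there was in height and not in place.

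**Figure D1:**
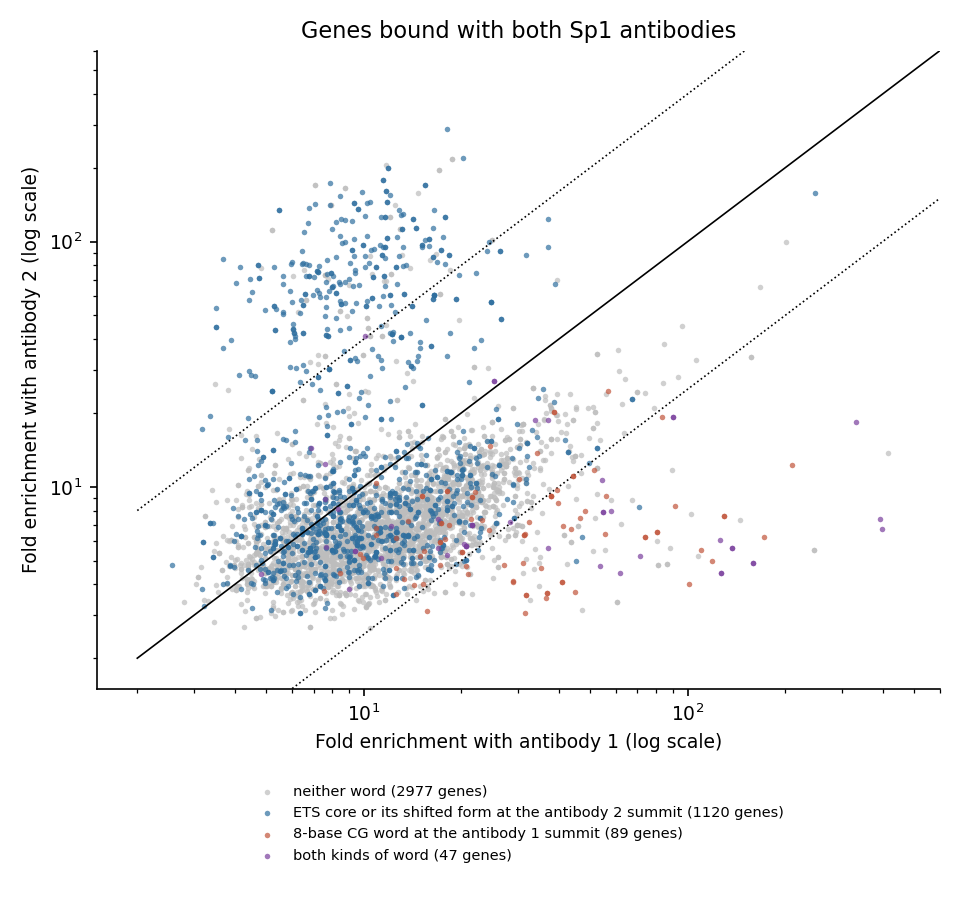
Fold enrichment with antibody 1 (x axis, log scale) and antibody 2 (y axis, log scale) for the 4233 genes bound with both, 1 point per gene. The solid line marks equal folds and the dotted lines a 4-fold difference. Grey points have neither kind of word (2977 genes). Orange points have the 8-base CG word TCGCGAGA at the antibody 1 summit (89). Blue points have CCGGAA or its shifted form CGGAAC at the antibody 2 summit (1120), and purple points both kinds (47). Blue points make up 241 of the 301 genes past the upper dotted line. Past the lower line lie 51.7% of the orange and 42.6% of the purple points. Of the 163 genes there, 90 are grey, 46 orange, 20 purple and 7 blue.

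Over all genes bound with both antibodies, the antibody 1 values had a median fold of 10.9 (quartiles 7.58 and 16.5) and a highest value of 416. The antibody 2 values had a median of 7.09 (5.47 and 10.3) and a highest value of 289. The median log2 ratio of antibody 2 to antibody 1 was −0.66, with quartiles of −1.12 and −0.03. Antibody 1 had the higher fold at 3205 genes (75.7%) and antibody 2 at 1028 (24.3%). The folds were within 2-fold of each other at 2436 genes (57.5%, 56.1 to 59%). Antibody 1 exceeded antibody 2 by more than 4-fold at 163 genes, or 3.85%, and antibody 2 exceeded antibody 1 by more than 4-fold at 301, or 7.11%. On the −log10 p of the peaks, which also grows with read depth, the order of these counts turned, with 616 genes over 4 times higher for antibody 1 and 393 for antibody 2. Across these 4233 genes the Spearman's rho of the folds was 0.322 and the Pearson's r of the log2 folds was 0.166. Genes are not independent replicates, and the plot of paired folds shows that a cloud of genes with high antibody 2 values lies apart from the main body.

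The word content followed the direction of the ratio. Among the 163 genes over 4-fold higher with antibody 1, TCGCGAGA lay within 50 bp of the antibody 1 summit at 66 (40.5%, 33.3 to 48.2%). Among the 301 genes over 4-fold higher with antibody 2 it did so at 1 (0.332%). The ETS core showed the reverse, at 188 of the 301 antibody 2 summits (62.5%, 56.9 to 67.7%) and 25 of the 163 antibody 2 summits at genes higher with antibody 1 (15.3%, 10.6 to 21.7%). CGGAAC occurred at 177 of the 301 (58.8%) and 6 of the 163 (3.68%). The 142 genes with TCGCGAGA at either summit had a median log2 ratio of −1.91, against −0.64 for the 4091 without. The 1236 genes with CCGGAA had a median of −0.17, against −0.78 for the 2997 without. Genes with the NRF1-like word GCGCATGC also leaned to antibody 1, with a median of −1.27 (n = 137). The C/EBP-like word TTGCNCAA went with antibody 2, with a median of 0.10 (n = 91). A GC box was present at 2909 genes with a median of −0.75 and absent at 1324 with a median of −0.33. The CCAAT box and the CRE, TGACGTCA, left the median near that of all genes, at −0.71 and −0.67.

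Genes bound with only 1 antibody sat lower in their list than shared genes for antibody 1, and less so for antibody 2. The median fold of the antibody 1 only genes was 7.02, with quartiles of 5.33 and 9.7, against the 10.9 that shared genes had with the same antibody. The antibody 2 only genes had a median of 6.54, with quartiles of 5.03 and 10.9, against 7.09. Sharing rose with strength for antibody 1. In the weakest 25% of its genes by fold, 33% (30.9 to 35.2%) were also bound with antibody 2, then 47%, 65.4% and, in the strongest 25%, 80.7% (78.8 to 82.4%). For antibody 2 the shares were 83.8% (81.6 to 85.8%), 89.2%, 90.9% and 87% (85 to 88.8%). Of the 100 genes with the highest fold, 75 were shared for antibody 1 and 96 for antibody 2. Of the top 500 the shares were 82% and 84%. A single-antibody gene was rarely a near miss in position, since 3148 of the 3248 antibody 1 only genes (96.9%) and 558 of the 592 antibody 2 only genes (94.3%) had no summit of the other antibody within 5 kb and no overlapping peak. Whether a weaker signal of the other antibody lay there below the calling threshold cannot be read from peak lists.

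**Figure D2:**
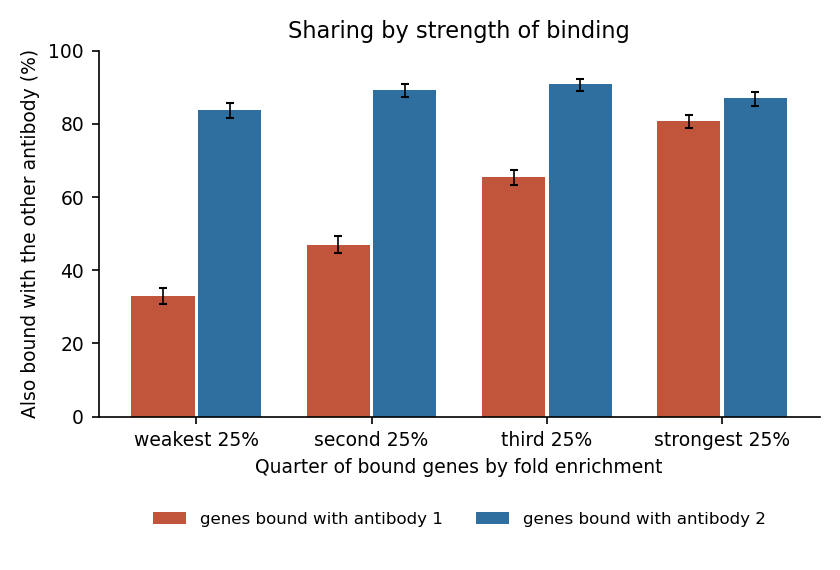
Percent of bound genes also bound with the other antibody (y axis), for genes ranked by fold enrichment in steps of 25% (x axis), for antibody 1 (orange) and antibody 2 (blue). Bars are shares of genes and error bars their 95% Wilson intervals; the orange bars climb from 33% to 80.7% while the blue bars stay between 83.8% and 90.9%.

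The words at the summits separated the 3 classes. The background for each share is the same word in 101 bases, the length of the summit window, centred 50 bp upstream of the canonical start site of all 19970 genes. A GC box lay within 50 bp of the antibody 1 summit at 59.1% (57.6 to 60.5%) of the genes bound with both and at 53.5% (51.8 to 55.2%) of the antibody 1 only genes. At the antibody 2 summits it was present at 47.4% (45.9 to 48.9%) of the shared genes but only 22.3% (19.1 to 25.8%) of the antibody 2 only genes. The background was 45.5%. In the upstream windows of each class's own genes, wherever the summit lay, the GC box was already at 56.9% for shared, 58.9% for antibody 1 only and 37.7% for antibody 2 only genes. ETS cores ran the other way, with 10.4% (9.4 to 11.5%) of antibody 1 only and 30.7% (27.2 to 34.6%) of antibody 2 only genes, against a background of 12.4%. Shared genes had 17.5% at the antibody 1 summit and 23.1% at the antibody 2 summit. The upstream windows of the classes held it at 22.8% for shared, 13.2% for antibody 1 only and 37.8% for antibody 2 only genes, so the order of the classes was the same in their promoters and the summits were not above them, except for 23.1% against 22.8%. CGGAAC was at 4.71% of antibody 1 only and 15.5% of antibody 2 only summits, with a background of 5.13%. The upstream windows of the same classes held it at 5.54% and 12.8%.

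TCGCGAGA, the core of an element known in housekeeping promoters, was at 139 antibody 1 only summits (4.28%, 3.64 to 5.03%) and at 1 antibody 2 only summit (0.169%), with a background of 1.03% and 2.92% and 0.338% in the upstream windows of the same classes. When present near an antibody 1 summit its centre lay a median of 8.5 bp away, in shared and in antibody 1 only genes alike. A GC box near the antibody 1 summit of a shared gene lay a median of 14.5 bp away, and an ETS core near an antibody 2 only summit 22.5 bp. The word GCGCANGC was at 13.3% of antibody 1 only and 4.73% of antibody 2 only summits, around a background of 9.61%. In the upstream windows of the same classes it was at 17% and 9.97%, so the summits were not above them. TTGCNCAA, which C/EBP and related bZIP factors read, was at 41 antibody 2 only summits (6.93%, 5.15 to 9.26%) and 12 antibody 1 only summits (0.369%), with a background of 0.616% and 1.01% in the upstream windows of antibody 2 only genes. At the antibody 2 only genes its centre lay a median of 7.5 bp from the summit. CCAAT boxes, bound by NF-Y and often found beside GC boxes, were at 27.3% of the antibody 1 summits of shared genes. They were at 18.3% of antibody 1 only and 10.1% of antibody 2 only summits, against a background of 20.7%. The upstream windows of these classes, in the same order, held them at 28.7%, 21.7% and 15.5%, above the summits in each. The TATA box TATAAA was at 0.77 to 1.3% of the summits of every class, against 2.03 to 2.36% in the upstream windows of the bound classes and 5.77% over all genes.

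**Figure D3:**
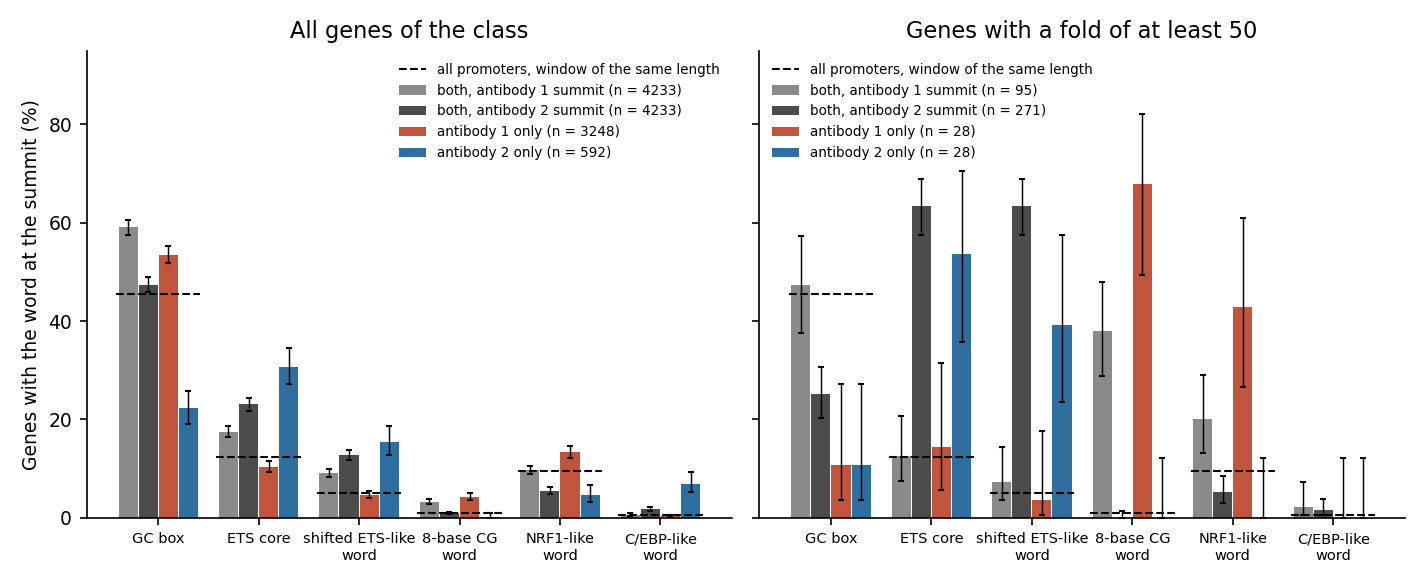
Percent of genes with a word within 50 bp of the strongest summit (y axis) for 6 words (x axis), over all genes of a class (left) and genes with a fold of at least 50 (right). Bars are shares with 95% Wilson intervals and dashed lines the share in 101 bases upstream of all start sites; the 8-base CG word is TCGCGAGA, the shifted ETS-like word CGGAAC, and the NRF1-like word GCGCANGC. On the right, the orange bar (antibody 1 only) for the 8-base CG word reaches 67.9% and the dark bars (both, antibody 2 summit) for the ETS words 63.5%; blue bars are antibody 2 only and light grey bars shared genes at the antibody 1 summit.

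Among the strongest genes the contrasts in TCGCGAGA, the ETS words and GCGCANGC were wider, whereas the GC box and TTGCNCAA no longer separated the single-antibody classes. Of the 28 antibody 1 only genes with a fold of at least 50, 19 had TCGCGAGA at the summit (67.9%, 49.3 to 82.1%), 12 had GCGCANGC (42.9%) and 3 had a GC box (10.7%). Of the 28 antibody 2 only genes at that level, 15 had the ETS core (53.6%, 35.8 to 70.5%), 11 had CGGAAC (39.3%) and 3 had a GC box (10.7%). TTGCNCAA was at none of either 28, and CCAAT at 1 of each (3.57%). Shared genes split by antibody. Of the 95 with an antibody 1 fold of at least 50, 36 had TCGCGAGA (37.9%, 28.8 to 47.9%), 45 a GC box (47.4%) and 12 an ETS core (12.6%). Of the 271 with an antibody 2 fold of at least 50, 172 had the ETS core (63.5%, 57.6 to 69%), 172 had CGGAAC and 221 had at least one of them (81.5%, 76.5 to 85.7%). None of these 271 had TCGCGAGA, which allows a share of up to 1.4% by the same interval, and 68 had a GC box (25.1%).

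Read from the promoter side, shares of bound genes are set against the 37.5% and 24.2% of all genes bound with antibody 1 and antibody 2. Promoters here are 250 bases before to 50 bases after the canonical start site. Of the 344 genes with TCGCGAGA in this window, 85.5% were bound with antibody 1 and 45.6% with antibody 2. Of the 4544 genes with an ETS core, 56.2% and 43.3% were bound, and of the 12243 with a GC box, 47.4% and 29.5%. With both antibodies, promoters with TCGCGAGA and those with an ETS core were above the shares of all genes. By class the 2 words still differed. Of the TCGCGAGA genes, 40.7% were bound with antibody 1 only and 0.872% with antibody 2 only, against 16.3% and 2.96% of all genes. Of the ETS core genes, 19.3% and 6.49% were. The antibody 2 only share was thus below that of all genes for TCGCGAGA and above it for the ETS core. Genes with TATAAA, 1943 in all, were bound least often of the groups with these 4 words, at 17.4% with antibody 1 and 11.2% with antibody 2. Promoter GC content was highest for the antibody 1 only genes, with a median of 67.7%, followed by 64.3% for shared, 62% for antibody 2 only and 61.3% for unbound genes. The median ratio of observed to expected CpG was 0.862, 0.847, 0.84 and 0.629 in the same order. Within 50 bp of the summit the median GC content was 66.3% and 65.3% at shared genes with antibody 1 and 2, 68.3% at antibody 1 only and 62.4% at antibody 2 only genes. Base composition therefore moves with the word shares, and its part in them was not tested.

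Summits were close to the start site in every class. The median position, with negative values upstream, was −61 bp for shared genes with either antibody, −62 bp for antibody 1 only and −42 bp for antibody 2 only genes. Relative to the canonical transcript, 84.2% of the antibody 1 summits of shared genes lay upstream and 5.53% in the 5′ untranslated region. For antibody 2 only genes these shares were 67.6% (63.7 to 71.2%) and 16.2% (13.5 to 19.4%), and 78.7% and 7.27% for antibody 1 only. At shared genes the strongest summits of the antibodies lay a median of 61 bp apart and within 100 bp at 64.5% (63 to 65.9%). At 38 genes no summits of the antibodies came within 1 kb of each other. The strongest summits were more than 1 kb apart at 162 genes (3.83%), among them TYMS, the thymidylate synthase gene, at 8709 bp.

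**Figure D4:**
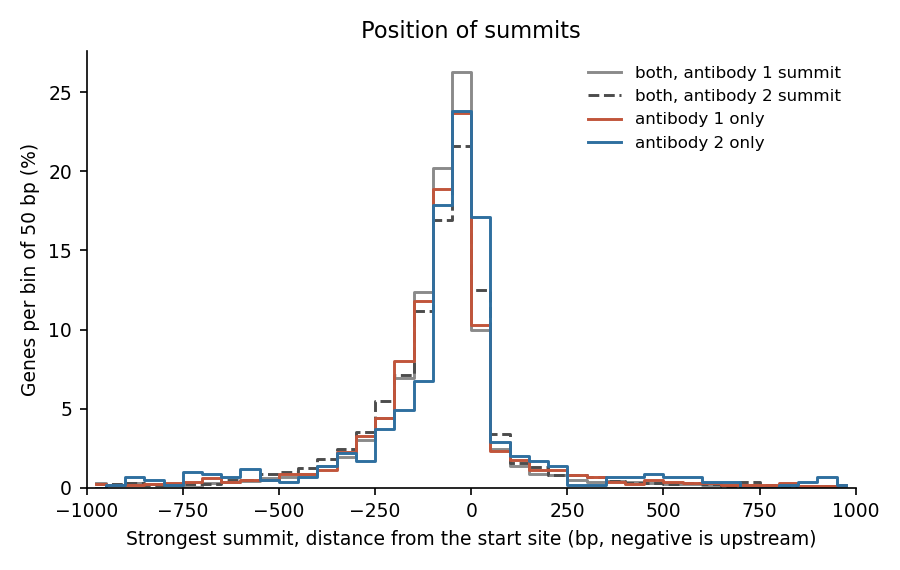
Position of the strongest summit relative to the start site (x axis, bp, negative is upstream) as percent of genes per bin of 50 bp (y axis) for the 3 classes, with shared genes drawn for each antibody. All lines peak just upstream of the start site, and the line for antibody 2 only genes carries more weight in the first bin downstream.

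Shared genes more often had a divergent neighbour. A start site of another protein-coding gene pointing away on the opposite strand within 1 kb was present at 36.1% (34.6 to 37.5%) of the genes bound with both antibodies. The shares were 23% of antibody 1 only, 22.8% of antibody 2 only, 7.06% of unbound and 16.3% of all genes. Such pairs enter the counts as separate genes. Any annotated start site could count, and shared genes had a median of 8. Antibody 1 only genes had 7, antibody 2 only genes 6 and unbound genes 4. The 4233 shared genes had 3443 distinct pairs of strongest summits, the antibody 1 only genes 2813 distinct summits and the antibody 2 only genes 511.

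CTCF, profiled in the other line, did not separate the Sp1 classes in the same way. Summits of both CTCF replicates lay within 1 kb of 24.3% of all genes. The shares were 31.6% (30.2 to 33%) for genes bound with both Sp1 antibodies, 29.9% (28.3 to 31.5%) for antibody 1 only and 30.4% (26.8 to 34.2%) for antibody 2 only, with overlapping intervals, and 19.8% for genes bound with neither. Replicate 1 alone gave 42.5%, 42.3% and 39.5%, and replicate 2 alone 32.6%, 30.7% and 30.9%.

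Genes of translation were bound in large shares, and the antibodies differed among them. Of the 79 cytosolic ribosomal protein genes, 49 were bound with both antibodies (62%, against 21.2% of all genes), 19 with antibody 1 only and 4 with antibody 2 only. RPL12 was far stronger with antibody 1, with a fold of 74.1 against 6.22 with antibody 2, whereas RPS7 had 13.3 against 129. RPS19 had 83.6 against 19.3. Of 60 translation factor genes, 29 were bound with both, 17 with antibody 1 only and 3 with antibody 2 only, the last including EIF5B, the factor of subunit joining, at a fold of 36.6. EIF1AD had 14.2 with antibody 1 and 123 with antibody 2, EIF3F 6.43 and 91.2, and EIF4E2, which binds the cap, 10.2 and 54.6. Of 38 aminoacyl-tRNA synthetase genes, 18 were bound with both and 12 with antibody 1 only. A further 5 (13.2%, against 2.96% of all genes) were bound with antibody 2 only, namely RARS1, IARS1, NARS1, LARS1 and RARS2, at folds of 4.56 to 15.5. These were named after their values were seen. TARS2, the mitochondrial threonyl enzyme, had 7.85 with antibody 1 and 140 with antibody 2. YARS1 had 22.2 and 10.3, and TARS3 was bound with antibody 1 only at 20.1.

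Nuclear genes for mitochondrial proteins leaned less to antibody 1 than shared genes as a whole. Of 78 mitochondrial ribosomal protein genes, 41 were bound with both, 19 with antibody 1 only and 4 with antibody 2 only. The median log2 ratio of antibody 2 to antibody 1 over the 41 was −0.19, against −0.66 for all shared genes, and 22 of the 41 were higher with antibody 1. The 4 strongest members were all higher with antibody 2, MRPL21 at 7.09 against 170, MRPL44 at 12.1 against 155, MRPL13 at 7.95 against 141 and MRPS31 at 11.3 against 126. An ETS core was in the promoter of 47 of the 78. Of 80 oxidative phosphorylation genes, 31 were bound with both, 20 with antibody 1 only and 5 with antibody 2 only. The median log2 ratio over the 31 was −0.39, and 19 of them were higher with antibody 1. The complex I subunits NDUFS3, NDUFC2, NDUFB3 and NDUFS7 led with antibody 2 folds of 169, 160, 102 and 95.8, against 15.4, 11.7, 15.9 and 15.9 with antibody 1.

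The proteasome list gave 17 genes bound with both, 16 with antibody 1 only and 5 with antibody 2 only among 48. Beside PSMD5, its strongest members were PSMF1, a proteasome inhibitor, at 11.6 and 85.4, and the antibody 2 only genes PSMG3, an assembly chaperone, at 46.2 and PSMC2, an ATPase of the base, at 34.4. The median log2 ratio over the 17 shared members was −0.17, and 10 of them were higher with antibody 1. RNA polymerase II, TFIID and Mediator genes likewise leaned to antibody 1 less than all shared genes, with a median of −0.19 over 34 shared genes of 70. Of the 34, 21 were higher with antibody 1. The members named next were picked by highest fold and were all higher with antibody 2. MED23 had 11.8 with antibody 1 and 144 with antibody 2. The TFIIH subunits GTF2H2 and GTF2H4 had 8.45 and 16.8 against 106 and 82.7, and CCNC, the cyclin of the Mediator kinase module, 10.1 against 41.2. GTF2H2 has near-identical copies in the genome, so the assignment of its reads is uncertain. ETS cores were in the promoters of 25 of the 48 proteasome genes and 35 of these 70, and in 22.8% of all promoters.

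Replication, mitosis and nucleotide synthesis genes leaned slightly more to antibody 1 than shared genes as a whole, while DNA repair and splicing genes, with medians of −0.61 and −0.58, did not. Of 56 DNA replication genes, 25 were bound with both, 19 with antibody 1 only and 2 with antibody 2 only, with a median log2 ratio of −0.82. RFC5, a clamp loader subunit, had 80.3 with antibody 1 and 6.01 with antibody 2, TIPIN, of the fork protection complex, 56.1 and 9.13, ORC2 22.5 and 12.7, and PCNA, the sliding clamp, 19.5 and 9.04. Of 54 mitosis genes, 29 were bound with both, 15 with antibody 1 only and none with antibody 2 only, with a median of −0.80. NCAPG, a condensin subunit, had 80.8 against 4.79 and MAD1L1, of the spindle checkpoint, 56.8 against 24.5. NUF2, of the kinetochore, was an exception with 11.4 against 88.5, and ANAPC5 had 39.4 against 69.4. Nucleotide synthesis had 14 genes bound with both, 9 with antibody 1 only and none with antibody 2 only among 38, with a median of −0.89. MTHFD1, a folate enzyme, had 25.2 against 5.01, PAICS 17 against 6.54, and DUT, the dUTPase, was bound with antibody 1 only at 21.7. NME1, a nucleoside diphosphate kinase, had 9.63 against 136. An ETS core was in 19 of the 56, 17 of the 54 and 9 of the 38 promoters. DNA repair had 26 shared genes of 53, 15 with antibody 1 only and 4 with antibody 2 only, the last including FANCM, a helicase of the Fanconi pathway, at 36.9. MSH6 and XPC, of mismatch and nucleotide excision repair, had 26.2 and 20.1 with antibody 1 against 6.31 and 5.41. Splicing and hnRNP genes had 54 shared of 91, 17 with antibody 1 only and 3 with antibody 2 only. Both directions occurred among the strongest, with SF3A3 at 12.8 and 134, SNRPB at 10.2 and 57.5, HNRNPH3 at 80.7 and 6.55, and SRSF10 with antibody 1 only at 97.2.

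**Figure D5:**
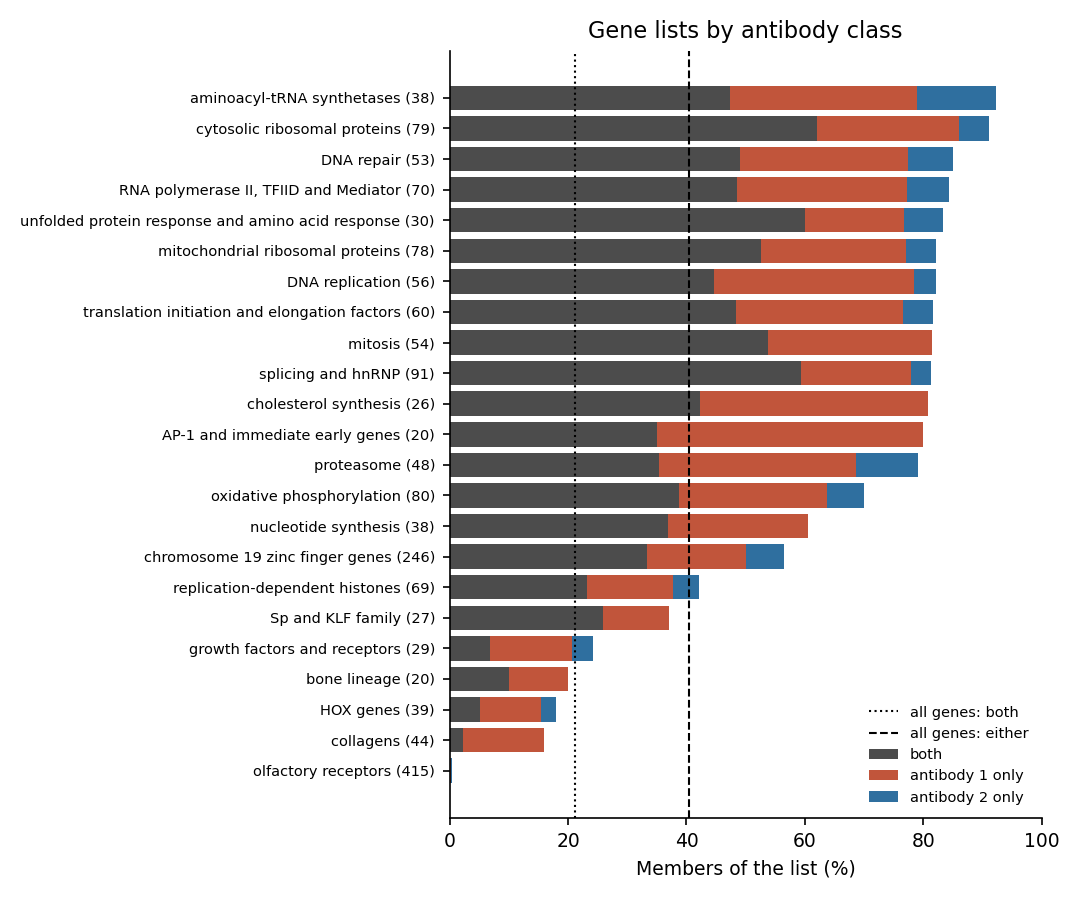
Members of 23 gene lists (y axis, number of matched genes in parentheses) by class, as percent of the list (x axis): both antibodies (dark), antibody 1 only (orange) and antibody 2 only (blue). The dotted line marks the 21.2% of all protein-coding genes bound with both and the dashed line the share bound with either; the bars of the translation, mitochondrial and transcription lists end to the right of the dashed line and those of the HOX, collagen and olfactory receptor genes to the left of both lines.

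The signal-responsive lists are small, and at 2.96% of all genes under 1 antibody 2 only gene falls to a list of this size. Cholesterol synthesis had 11 shared and 10 antibody 1 only genes of 26 and none with antibody 2 only. CYP51A1 had 28.6 with antibody 1 and 13.1 with antibody 2, PMVK 26.2 and 9.42, and DHCR7 16 and 9.73. AP-1 and immediate early genes had 7 shared and 9 antibody 1 only genes of 20. FOSB had 18.3 and 9.38, JUN 11.1 and 6.75, EGR1 was bound with antibody 1 only at 11.3, and ATF3 had 4.51 and 14.3. The unfolded protein and amino acid response list had 18 shared, 5 antibody 1 only and 2 antibody 2 only genes of 30. DDIT3, the factor CHOP, had 33.4 and 25.2, the stress sensor ERN1 30.2 and 7.01, the chaperone CANX 24.5 and 13.3, and SEL1L 21.5 and 17.1. Zinc finger genes of chromosome 19 had 82 shared, 41 antibody 1 only and 16 antibody 2 only genes of 246, the last a share of 6.5%. ZNF302, ZNF579 and ZNF561 were higher with antibody 2, at 92.1, 78.9 and 66.5 against 9.21, 10.1 and 9.66, and ZNF784 had 60.8 with antibody 1 and 36.2 with antibody 2. Replication-dependent histone genes had 16 shared, 10 antibody 1 only and 3 antibody 2 only genes of 69. Their folds were low, at 12.3 and 5.34 for H4C11, 9.29 and 6.09 for H4C14, 9.94 with antibody 2 only for H3C15 and 9.3 with antibody 1 only for H2AC19. Near-identical histone genes can share reads, so their assignment is uncertain.

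Developmental and tissue genes were mostly bound with neither antibody. This held for 32 of 39 HOX genes, 37 of 44 collagen genes, 16 of 20 bone lineage genes, 22 of 29 growth factor and receptor genes and 413 of 415 olfactory receptor genes, against 59.6% of all genes. HOXC13 had 8.89 with antibody 1 and 4.55 with antibody 2, while HOXA4 and HOXA9 had antibody 1 only, at 6.15 and 5.77. COL1A1, the main collagen of bone, had 10.4 with antibody 1 and 4.51 with antibody 2, and COL6A1, COL5A3 and COL11A1 had antibody 1 only, at 20.8, 10.7 and 6.85. ATF4, a factor of osteoblast maturation, had 20.1 and 12. BMP4 and SP7, the osteoblast factor osterix, had antibody 1 only at 6.92 and 6.7. ERBB2 had 11.3 and 12, TGFB1 and ERBB3 had antibody 1 only at 13.9 and 9.46, and PDGFRA had antibody 2 only at 12.5. OR56B1 and OR1F1 were the olfactory receptor genes with a summit, at 8.26 with antibody 2 and 4.21 with antibody 1.

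Genes long studied as Sp1 targets, and the Sp genes themselves, were mostly shared and higher with antibody 1. SP1 had a fold of 19.6 with antibody 1 at −227 bp, with a GC box at the summit, and 12.3 with antibody 2. SP2 had 24.9 and 16.1, SP3 4.39 and 4.09, SP4 14.6 and 6.28, and KLF7 8.44 and 4.45. Of the 27 Sp and KLF genes, 7 were bound with both antibodies, 3 with antibody 1 only and none with antibody 2 only, and all 7 shared genes had the higher fold with antibody 1. TK1, thymidine kinase, had 13.9 and 5.86, VEGFA 6.73 and 3.99, and TYMS 6.36 and 3.74. CDKN1A, the p21 inhibitor, was bound with antibody 1 only at 3.96. EGFR and IGF1R were bound with neither.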

How the data were processed

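ChIP-seq peak lists of 2 Sp1 antibodies, IgG and 2 CTCF replicates were used. The 3 input samples have no list here. Per the submitters' processing notes, reads were handled with Cutadapt 2.6, Bowtie2 2.4.5, SAMtools 1.15.1 and MACS2 2.2.7.1 on hg38, and the methods text names other versions for some of these tools. The authors deposited 1 list per library with a linear fold over the control, the −log10 p and −log10 q at each summit, and an integer score that was not used here. Which control the deposited lists used is not given in the sources used here. The lowest −log10 q of a list was 1.3 to 1.43. The lists carry no depth and none was taken from elsewhere, so differences in depth between the antibodies cannot be told apart from differences in enrichment.

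Genes and start sites came from GENCODE release 44, protein-coding, chromosomes 1 to 22 and X. A gene's fold was the highest among its summits within 1 kb of a start site, and each gene entered with all its start sites. Words on either strand were sought in the 101 bases centred on a summit and in 300 bases at the canonical start site, read from hg38. RefSeq promoters existed for 76.7% of all genes, 82% of shared, 79.9% of antibody 1 only and 80.2% of antibody 2 only genes, so word shares in RefSeq promoters are given as an alternative and no order of the classes is read from them. Shares carry 95% Wilson intervals. The scripts were tested on simulated data. Analyses used Python 3.11.15, numpy 2.4.6, pandas 2.3.3, scipy 1.17.1, pysam 0.24.0 and matplotlib 3.10.9.

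Named genes were the 10 strongest per class and the 5 most unequal per direction outside IgG summits, with 1 gene per summit and, for genes of 1 antibody, no peak of the other within 5 kb. Up to 4 members with the highest fold per gene list and a set of known Sp1 targets were also named, and further genes that these rules pick are not reported here. Members, lists and the first words were chosen with earlier results of these data known. The words CGGAAC and GCGCANGC, and the alternatives that counted each summit once or used the antibody 2 summit, were chosen after seeing the data.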

Additional observations from a re-analysis of the deposited data

Results flagged for a closer look

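Peaks on sequences that are not placed on a chromosome were left out of every comparison of genes. Antibody 1 had 93 of them with a median fold of 3.56 and a highest fold of 153. Antibody 2 had 79 with a median of 3.57 and a highest fold of 13.9. The IgG list had 12, with a median of 1.87 and a highest fold of 2.42. As a share of the list they were 1.07% for antibody 1, 1.32% for antibody 2 and 11.3% for IgG. The Sp1 lists thus hold more such peaks in number and with higher folds than IgG, but a smaller share of their peaks, and which genes or repeats they belong to was not analysed.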

How the results depend on the processing

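Of 101 alternative values, 59 stayed inside 1.5 times the reported count or inside the interval of the reported share, and 42 did not. Only the median log2 ratio could change sign, and none of its alternatives did. With equal numbers of top peaks, 2019 genes were bound with antibody 1 only and 1139 with antibody 2 only, and the shares of antibody 1 and antibody 2 genes that were shared became 64.6% and 76.4%. At a minimum fold of 5 those shares were 50.2% and 83.9%. With summits within 500 bp or 5 kb of a start site, the share of antibody 1 genes was 55.4% or 58.1%. The median log2 ratio at shared genes was −0.63 with the summit nearest the start site, −0.97 on the −log10 p and −0.69 for summits within 100 bp of each other. Genes over 4-fold higher with antibody 1 then numbered 616 on the −log10 p, more than the 393 higher with antibody 2, which turns the order of these counts, and 83 within 100 bp.

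Word shares moved with the window. At shared genes the GC box was at 74.5% within 100 bp, 74% in RefSeq promoters, 69.9% among the strongest 25% and 47.4% at the antibody 2 summit. The ETS core was at 29.5%, 38.1%, 10.4% and 23.1% under the same settings, and TCGCGAGA at 3.99% within 100 bp, 9.92% among the strongest and 0.921% at the antibody 2 summit. At antibody 1 only genes the GC box was at 70.5%, 74.3% and 59.4% under the first 3 settings, the ETS core at 20.6% and 27.1% under the first 2, and TCGCGAGA at 14.8% among the strongest 25%. At antibody 2 only genes the GC box was at 38.2%, 56% and 17.6%, and the ETS core at 45.6%, 48.6% and 48%. The antibody 2 only genes had the lowest GC box share and the highest ETS core share of the 3 classes within 100 bp and among the strongest 25%. Among the strongest 25% the order of shared and antibody 1 only genes in the ETS core turned, at 10.4% and 11.3%. RefSeq promoters cover under 80% of antibody 1 only genes, so no order is read from them.

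Counting 1 CTCF replicate in place of both gave 32.6 to 42.5% for shared, 30.7 to 42.3% for antibody 1 only and 30.9 to 39.5% for antibody 2 only genes, and CTCF summits within 500 bp gave 24.5%, 22.9% and 26%. No paired analysis was possible because the replicate numbers in the labels are common only to CTCF and its input libraries, and the input libraries have no peak list here. Reagent, library and depth cannot be told apart, and weaker signal below the calling threshold is not in the lists, so a gene bound with 1 antibody is not shown to be free of the other. The cause of the shifts was not tested.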

Other observations

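The share of genes bound with both antibodies differed by chromosome, from 9.2% on X to 30.5% on chromosome 19. The share bound with antibody 1 only reached 21.3% on chromosome 15, and that of antibody 2 only ran from 0.455% on chromosome 21 to 4.65% on chromosome 5. The word ACTACAATT, read by ZNF143, was at 1.69% of the antibody 2 only summits and 0.185% of the antibody 1 only summits. At shared genes it was at 0.26% and 0.354% of the summits of antibody 1 and 2. The windows upstream of all genes held it at 0.165%. Those of the antibody 2 only genes held it at 1.86% (11 of 592), so their summits were not above their promoters. The AP-1 site TGACTCA was at 1.69% of antibody 2 only and 0.647% of antibody 1 only summits, against 1.4%. Genes bound with both antibodies had a median of 8 annotated start sites, antibody 1 only genes 7, antibody 2 only genes 6 and unbound genes 4, so shared genes also had more places at which a summit could be counted.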
